A study of Mus musculus with 12 samples.

Results

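Genes of cholesterol and fatty acid synthesis were examined in the hypothalamus of mouse pups after modified maternal separation (MMS), a model of early life stress. The group was a list of 34 genes covering the enzymes of both routes, the SREBP proteins that control them and a pair of sterol carriers, and all 34 were found by symbol among the 43280 rows of the deposited count table. The comparison was between 6 control and 6 MMS pups, all male, of strain C57/Bl6 and taken at P6. Litters had been reduced to males, and the males of each litter were divided at random between both groups. MMS pups had been kept from the dam on a heating pad on consecutive days and turned onto their backs whenever they righted themselves, and control pups had no such separation. Each pup gave 1 library from the 3' end of mRNA. No label gives the litter, so pups were treated as independent. As each litter gave pups to both groups, control and MMS libraries are likely to share litters, and the main test leaves out this pairing. The list was drawn up with earlier results of these libraries known.

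Cells make cholesterol from acetyl-CoA. Acetyl-CoA is turned into mevalonate and then into farnesyl diphosphate, squalene and lanosterol, which a last run of enzymes converts to cholesterol. The developing brain makes its own cholesterol, because plasma lipoproteins do not cross the blood-brain barrier, and uses it for membranes, synapses and myelin. The sterol regulatory element-binding proteins, encoded by Srebf1 and Srebf2, are held in the endoplasmic reticulum by the SCAP and INSIG proteins while sterol is plentiful. When sterol runs low they are cleaved and switch on the synthesis genes, with SREBP-2 acting mainly on cholesterol genes and SREBP-1 mainly on fatty acid genes.

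Libraries held 3218777 to 6560620 counts. The tissue label was checked against 20 hypothalamic markers such as Avp, Oxt, Pomc and Nkx2-1. Of these 20 all had counts in some libraries and 19 passed the filter on low counts. Their summed level was 1608 to 2513 CPM (counts scaled to library size) in controls and 1831 to 2441 CPM in MMS. Single markers did not all follow the sum, with 9 log2 fold changes above 0 and 10 below. Agrp was at 0 CPM in MMS 2 and Nr5a1 at 0 CPM in MMS 4. In MMS 4 Pomc was at its lowest of all libraries (3.19 CPM), whereas Pmch (929 CPM) and Nkx2-1 (30.5 CPM) were at their highest. On the first principal component of all genes MMS 2 and MMS 4 lay at 57.8 and 46.3, and the other 10 libraries between -14.4 and -3.04. Control 3 held 1779 CPM of choroid plexus markers (6 genes), where the other 11 libraries held 12.9 to 45.2 CPM. Log2 fold changes that rest on MMS 2 and MMS 4 are given below with and without them. Spreads and sums are given with all libraries only.

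The first question was whether any gene of the pathway differed between MMS and control. None of the 34 did after correction. In the edgeR quasi-likelihood test 0 of 34 genes passed an FDR of 0.05, where 0% of all 13104 genes tested did, and the adjusted p-values of the 34 ran from 0.543 to 0.997. All 34 had passed the filter on low counts. At an unadjusted p under 0.05 there was 1 gene higher in MMS, Fads1, beside 4.68% of all genes tested, and 1 lower, Sqle, beside 4.4%, which makes 2 in either direction beside 9.08%. DESeq2 and limma-voom likewise placed 0 of the 34 past the threshold, with 2 genes higher and 2 lower at an unadjusted p under 0.05 in DESeq2, beside 5.43% and 4.45% of all genes, and 1 higher and 2 lower in limma-voom, beside 4.01% and 6.32%. In none of the 34 were the groups free of overlap, where 0.389% of all genes had groups that did not overlap.

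The log2 fold changes (MMS relative to control) lay between -0.63 for Mvd and 0.35 for Fads1. Of the 34, 19 were above 0 and 15 below, beside 50.1% of all genes above 0 and 49.9% below. The median was 0.02, beside 0.0009 for all genes tested. The precision allowed a bound on most of the group. For 30 of the 34 genes the 95% interval of the fold change lay within 1.5-fold in either direction, and for 33 it lay within 2-fold. The 4 genes with a wider reach were Mvd, Idi1, Ebp and Fads1. Fasn, which encodes the multi-enzyme protein that builds palmitate, had the narrowest interval, from -0.14 to 0.20 on the log2 scale.

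**Figure D1:**
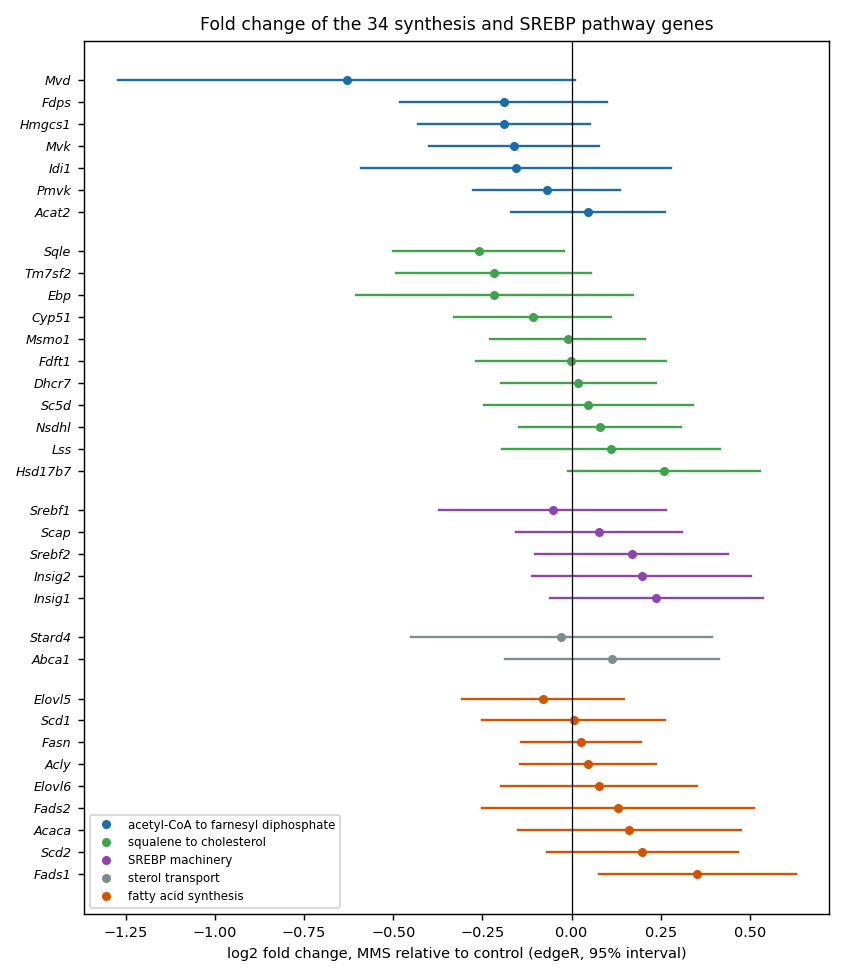
Log2 fold change of each of the 34 genes in MMS relative to control, with 95% intervals from the edgeR fit, grouped and coloured by role. Points lie between -0.63 (Mvd) and 0.35 (Fads1), and the intervals of Sqle and Fads1 lie on a single side of 0, without correction for the number of genes tested.

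Promoters were examined for letters that SREBP and its partner NF-Y are known to bind. The promoter windows of RefSeq (build GRCm38.p6, 250 bases before the start of transcription and 50 after) covered 27 of the 34 genes. Fdps, Fdft1, Sqle, Stard4, Scd1, Scd2 and Fads1 had no window. The sterol regulatory element was searched as TCACNCCAC and the NF-Y box as CCAAT, each on both strands. Some genes had several windows (35 for the 27 genes, 32851 for all genes), and a gene counted if any of its windows matched. CCAAT was present for 21 of 27 genes (77.8%), beside 41.1% of all 27025 genes with a window. TCACNCCAC was present for 1 of 27, Hmgcs1, beside 1.44% of all genes. A match describes the letters only. The windows of 4 genes are shown from 250 bases before the start up to the start, Hmgcs1 because it alone held both motifs, Mvd and Hsd17b7 as the sterol enzymes with the largest fold changes in each direction, and Fasn as the enzyme whose level was steadiest. Capitals mark TCACNCCAC and CCAAT or their reverse complements. In Fasn a match on each strand overlaps, which gives the run CCAATTGG, and a further CCAAT of Hmgcs1 lies after the start.
Hmgcs1 (chr13:119690101-119690350, plus strand): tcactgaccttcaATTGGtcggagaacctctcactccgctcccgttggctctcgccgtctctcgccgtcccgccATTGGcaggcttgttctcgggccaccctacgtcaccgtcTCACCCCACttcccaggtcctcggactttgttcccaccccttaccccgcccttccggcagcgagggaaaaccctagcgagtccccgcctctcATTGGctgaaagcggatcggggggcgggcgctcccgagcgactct
Mvd (chr8:122443423-122443672, minus strand): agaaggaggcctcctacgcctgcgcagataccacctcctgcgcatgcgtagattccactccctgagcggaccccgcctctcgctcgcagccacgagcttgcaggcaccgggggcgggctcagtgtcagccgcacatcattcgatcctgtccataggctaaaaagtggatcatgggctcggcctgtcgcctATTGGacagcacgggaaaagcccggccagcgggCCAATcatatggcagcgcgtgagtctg
Hsd17b7 (chr1:169969206-169969455, minus strand): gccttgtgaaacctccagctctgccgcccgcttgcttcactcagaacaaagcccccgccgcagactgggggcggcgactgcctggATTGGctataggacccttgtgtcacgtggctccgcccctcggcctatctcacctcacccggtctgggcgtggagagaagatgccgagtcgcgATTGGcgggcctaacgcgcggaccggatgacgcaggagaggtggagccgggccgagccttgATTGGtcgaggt
Fasn (chr11:120824548-120824797, minus strand): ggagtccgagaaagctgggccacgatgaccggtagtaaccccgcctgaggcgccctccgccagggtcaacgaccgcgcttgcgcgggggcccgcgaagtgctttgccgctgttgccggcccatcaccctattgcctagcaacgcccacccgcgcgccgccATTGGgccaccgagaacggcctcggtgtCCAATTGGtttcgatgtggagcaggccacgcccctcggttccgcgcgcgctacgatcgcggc
Counted to the first base of each match, the NF-Y boxes lay 60 and 27 bases before the start in Mvd, 165, 73 and 12 bases before it in Hsd17b7, and 90, 62 and 59 bases before it in Fasn. The sterol element of Hmgcs1 lay 137 bases before the start.

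The first group was formed by the 7 enzymes that lead from acetyl-CoA to farnesyl diphosphate. Their log2 fold changes were below 0 in 6 of 7, with a median of -0.16, and none passed the test. Mvd (8:122433601-122443422, minus strand), whose promoter is among those shown, encodes mevalonate diphosphate decarboxylase, which makes isopentenyl diphosphate. Its level in controls had a lowest value of 188, a median of 222 and a highest value of 249 CPM. In MMS the values were 164, 79.0, 89.3, 69.5, 218 and 233 CPM in MMS 1 to MMS 6. The MMS libraries were spread widely, with MMS 1, 2, 3 and 4 below every control and MMS 5 and 6 inside the control range. Its log2 fold change came to -0.63 (SE 0.29, adjusted p = 0.552 by edgeR). It was -0.31 without MMS 2 and MMS 4 (edgeR adjusted p = 0.964).

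Hmgcs1 (13:119690379-119708260, plus strand), which condenses acetoacetyl-CoA and acetyl-CoA into HMG-CoA, had 59083 counts over all libraries. Controls lay at 1028, 1147 and 1185 CPM (lowest, median, highest) and MMS libraries at 700, 978 and 1255 CPM. The lowest of these was MMS 3, and 4 of 6 MMS libraries were below every control while MMS 5 was above every control. In the fit the log2 fold change was -0.19 (SE 0.12, adjusted p = 0.606 by edgeR). It was -0.11 without MMS 3 and -0.12 without MMS 2 and MMS 4. Mvk (5:114444269-114460591, plus strand), mevalonate kinase, measured 56.5, 69.3 and 73.8 CPM in controls and 50.2, 62.7 and 69.9 CPM in MMS. The ranges overlapped over most of their length, and the log2 fold change was -0.16 (SE 0.11, adjusted p = 0.648 by edgeR), or -0.09 without MMS 2 and MMS 4.

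The remaining enzymes of this stretch lay between -0.19 and 0.05. Log2 fold changes were 0.05 for Acat2, the thiolase that makes acetoacetyl-CoA, -0.07 for Pmvk, phosphomevalonate kinase, -0.16 for Idi1, the isopentenyl diphosphate isomerase, and -0.19 for Fdps, the farnesyl diphosphate synthase. Their edgeR adjusted p-values were 0.658 to 0.896. Fdps is uncertain, since 5 other transcripts of the annotation share at least 95% of the letters of its 3' end over 100 bases or more.

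The second group was formed by the 11 enzymes from squalene to cholesterol. Log2 fold changes were above 0 in 5 and below 0 in 6, with a median of -0.002. Sqle (15:59315077-59331192, plus strand) encodes squalene epoxidase, the enzyme that adds the first oxygen of the sterol. It measured 138, 153 and 165 CPM in controls and 88.1, 136 and 149 CPM in MMS, and 4 of 6 MMS libraries were below every control. MMS 3 was the lowest and MMS 1 the next, at 117 CPM. Between the groups the log2 fold change was -0.26 (SE 0.12, adjusted p = 0.543 by edgeR). Without MMS 3 it was -0.17, with an edgeR adjusted p of 0.536, and without MMS 2 and MMS 4 it was -0.34 (edgeR adjusted p = 0.856).

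Hsd17b7 (1:169949535-169969241, minus strand), the 3-ketosteroid reductase that acts in removal of the methyl groups at C4, had the largest value above 0 among the sterol enzymes. Controls measured 29.0, 35.5 and 38.5 CPM and MMS libraries 32.1, 44.2 and 49.2 CPM. MMS 1, 3, 5 and 6 lay between 43.9 and 49.2 CPM, above every control, while MMS 2 and MMS 4 lay within the control range at 36.8 and 32.1 CPM. The log2 fold change was 0.26 (SE 0.13, adjusted p = 0.556 by edgeR) and 0.39 without MMS 2 and MMS 4 (edgeR adjusted p = 0.827). Tm7sf2 (19:6062821-6068373, minus strand), a sterol C14 reductase, measured 28.1, 38.5 and 44.3 CPM in controls and 29.4, 31.6 and 34.9 CPM in MMS. All 6 MMS values lay inside the control range, and the log2 fold change was -0.22 (SE 0.13, adjusted p = 0.602 by edgeR). Exons of Tm7sf2 overlap those of Vps51 on the same strand, so its counts may hold reads of both genes.

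Of the other 8 enzymes the smallest adjusted p in edgeR was 0.710. Ebp, which shifts the double bond of the sterol ring, had a log2 fold change of -0.22 (95% interval -0.61 to 0.17), and Cyp51, lanosterol demethylase, of -0.11. Fdft1, squalene synthase (-0.002), Msmo1, the C4 methyl oxidase (-0.01), and Dhcr7, which completes cholesterol from 7-dehydrocholesterol (0.02), lay near 0. Sc5d, the C5 desaturase, was at 0.05, Nsdhl, the C4 decarboxylase, at 0.08 and Lss, lanosterol synthase, at 0.11. For Dhcr7 the 95% interval ran from -0.20 to 0.24 on the log2 scale.

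The third group held the proteins that sense sterol and control transcription. Log2 fold changes were above 0 in 4 of the 5, with a median of 0.17, and none passed the test. Srebf2 (15:82147181-82205379, plus strand) measured 122, 131 and 144 CPM in controls and 115, 133 and 195 CPM in MMS. MMS 2 and MMS 4 were at 191 and 195 CPM, MMS 3 at 146 CPM, and MMS 1, 5 and 6 were below every control. Its log2 fold change came to 0.17 (SE 0.13, adjusted p = 0.675 by edgeR) and turned to -0.07 without MMS 2 and MMS 4. Srebf1 (11:60199089-60222581, minus strand) measured 24.5, 28.3 and 32.5 CPM in controls and 18.2, 27.7 and 35.2 CPM in MMS. The ranges overlapped, with MMS 3 the lowest and MMS 2 the highest of the 12 libraries, and the log2 fold change was -0.05 (SE 0.15, adjusted p = 0.920 by edgeR). It was 0.04 without MMS 3 and -0.19 without MMS 2 and MMS 4. Exons of Srebf1 overlap those of Rai1 on the opposite strand.

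Insig1 (5:28071363-28078662, plus strand) and Insig2 (1:121304353-121332589, minus strand) encode the proteins that retain SREBP in the endoplasmic reticulum, and Insig1 is itself a target of SREBP. Insig1 measured 24.5, 27.9 and 32.2 CPM in controls and 22.9, 33.4 and 40.8 CPM in MMS. The highest were MMS 4 at 40.8 CPM and MMS 2 at 37.9 CPM, and MMS 1 was the lowest of all 12 libraries. In the fit the log2 fold change was 0.24 (SE 0.14, adjusted p = 0.603 by edgeR), and 0.09 without MMS 2 and MMS 4. Insig2 measured 16.9, 20.1 and 24.3 CPM in controls and 19.2, 22.6 and 27.4 CPM in MMS, again with MMS 2 and MMS 4 above every control. Its log2 fold change was 0.20 (SE 0.15, adjusted p = 0.665 by edgeR), and 0.07 without MMS 2 and MMS 4. Scap (9:110333288-110384950, plus strand), the escort of SREBP to the Golgi, measured 62.0, 77.8 and 90.2 CPM in controls and 71.2, 82.9 and 93.7 CPM in MMS. Those ranges overlapped, with 1 MMS library above every control, and the log2 fold change was 0.08 (SE 0.11, adjusted p = 0.838 by edgeR), or 0.006 without MMS 2 and MMS 4.

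Abca1 (4:53030787-53159895, minus strand), the pump that exports cholesterol to apolipoproteins, measured 26.8, 32.7 and 35.8 CPM in controls and 26.6, 33.2 and 46.7 CPM in MMS. MMS 2 and MMS 4 (46.7 and 41.0 CPM) were above every control and the other 4 MMS libraries were not. Between the groups the log2 fold change was 0.11 (SE 0.14, adjusted p = 0.807 by edgeR) and turned to -0.08 without them. Stard4, a carrier that moves sterol between membranes, was at -0.03 on the log2 scale (SE 0.20, adjusted p = 0.968 by edgeR).

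The fourth group was formed by 9 genes of fatty acid synthesis, elongation and desaturation. Log2 fold changes were above 0 in 8 of 9, with a median of 0.08, and none passed the test. The median was 0.03 without MMS 2, 0.04 without MMS 4 and -0.0006 without both. Fads1 (19:10182888-10196877, plus strand), the delta-5 desaturase that makes arachidonic and eicosapentaenoic acid, had the smallest p of all 34 genes. It measured 180, 203 and 219 CPM in controls and 201, 227 and 346 CPM in MMS. MMS 4 (346 CPM), MMS 2 (334 CPM) and MMS 3 (239 CPM) were above every control, and MMS 1, 5 and 6 were within the control range. The log2 fold change was 0.35 (SE 0.13, adjusted p = 0.543 by edgeR). Without MMS 2 and MMS 4 it was 0.10 (edgeR adjusted p = 0.964).

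Scd2 (19:44293674-44306864, plus strand), the stearoyl-CoA desaturase that predominates in brain, gave 54221 counts in all. It measured 783, 929 and 1024 CPM in controls and 819, 967 and 1442 CPM in MMS. Only MMS 4 (1442 CPM) and MMS 2 (1271 CPM) were above every control. Its log2 fold change came to 0.20 (SE 0.13, adjusted p = 0.620 by edgeR) and turned to -0.02 without them. Scd1, its liver and fat counterpart, was at 0.006, Fads2, the delta-6 desaturase, at 0.13 and Acaca, which makes malonyl-CoA, at 0.16. Acly, which supplies cytosolic acetyl-CoA, was at 0.05 and Fasn at 0.03. Fasn varied little in either group, from 339 to 369 CPM in controls and from 351 to 373 CPM in MMS. The elongases Elovl5 and Elovl6 were at -0.08 and 0.08. The adjusted p-values of these 7 genes were 0.732 to 0.990 in edgeR.

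**Figure D2:**
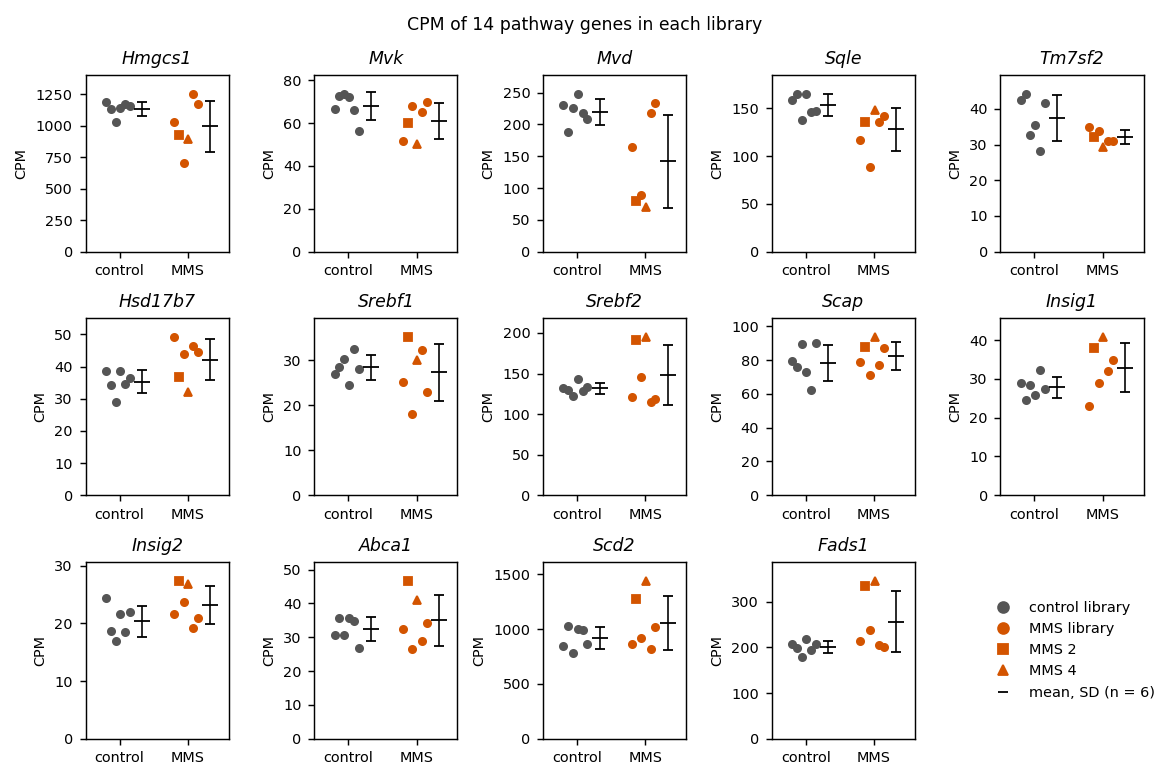
CPM in each library of the 14 genes described in full, with control libraries in grey, MMS libraries in orange (MMS 2 as a square and MMS 4 as a triangle), and bars for the mean and SD of 6 libraries per group. The axes start at 0, and MMS 2 and MMS 4 are the highest libraries for Srebf2, Insig1, Insig2, Abca1, Scd2 and Fads1 and among the 3 lowest for Mvd.

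The next question was how the genes varied between libraries. The spread was wider among MMS pups than among controls. The SD of log2 CPM was larger in MMS for 27 of the 34 genes (79.4%), beside 72.9% of all genes tested, and its median over the 34 was 0.16 in controls and 0.26 in MMS, beside 0.23 and 0.33 for all genes. Mvd went from an SD of 0.14 to 0.77 and Srebf2 from 0.08 to 0.35, while Fasn stayed at 0.04 and 0.03.

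The 2 routes were then set side by side in each library. The median over the 18 cholesterol enzymes of the log2 difference from the control mean was -0.22 in MMS 2, -0.16 in MMS 3 and -0.14 in MMS 4, and -0.07, 0.03 and 0.09 in MMS 1, 5 and 6. For the 9 fatty acid genes it was 0.42 in MMS 2, 0.14 in MMS 4, -0.07 in MMS 3 and MMS 1, and 0.03 and 0.05 in MMS 5 and 6. Among controls the lowest values were those of Control 3, at -0.15 and -0.16 for the 2 sets, and the highest were 0.08 and 0.12. MMS 2 thus lay below every control for cholesterol enzymes and above every control for fatty acid genes. MMS 3 also lay below every control for the first set, but within the control range for the second. MMS 4 was within the control range for the first set and just above it for the second. MMS 6 was just above every control for the first set and within the control range for the second. Over all genes the median of every library was between -0.0008 and 0.01. Control libraries entered the mean they were set against, so their values are drawn towards 0.

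Single genes beyond every control were then counted in each MMS library. In MMS 2, 13 of the 34 genes were above every control and 9 below every control, beside 27.9% and 28.8% of all genes. In MMS 4 the counts were 12 and 6, beside 27.0% and 27.5%. In MMS 3 they were 3 and 13, beside 20.2% and 20.5%, and in MMS 6 they were 9 and 2, beside 15.7% and 17.3%. MMS 6 was the highest of the 12 libraries for 7 of the 34 genes, beside 7.59% of all genes. MMS 3 was the lowest of the 12 libraries for 10 of the 34 genes, among them Hmgcs1, Fdps, Sqle and Srebf1, beside 10.6% of all genes, and Control 3 was the lowest for another 10, beside 5.65%.

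**Figure D3:**
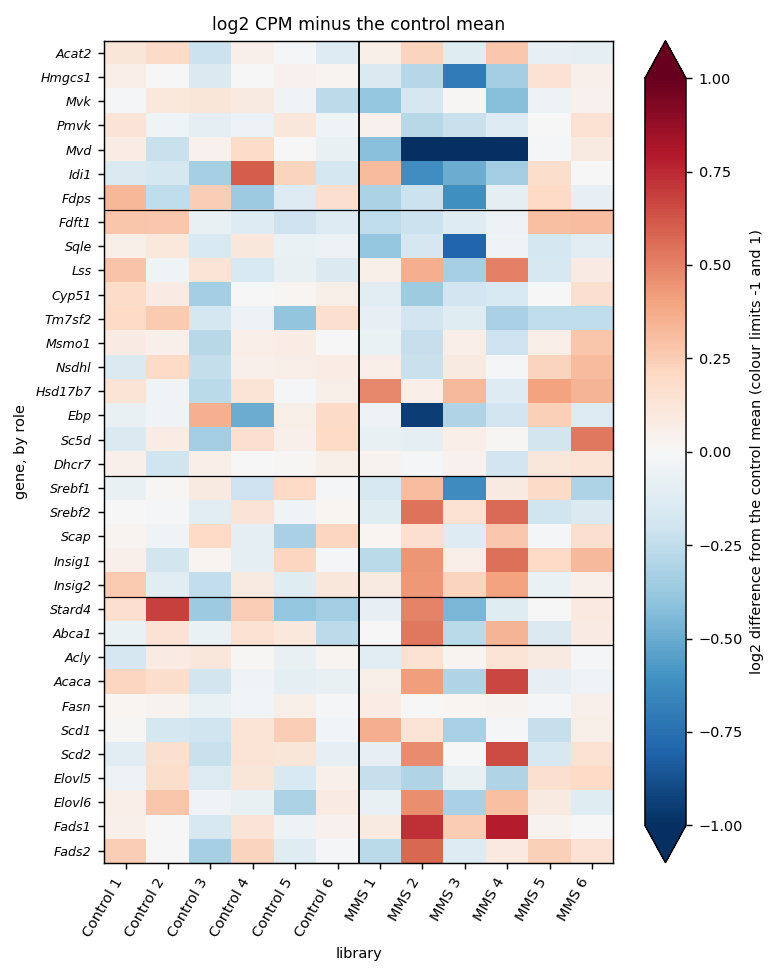
Log2 CPM of the 34 genes in each of 12 libraries minus the mean of the 6 controls, with genes in rows by role and the groups separated by a vertical line. Colours are limited to values from -1 to 1, and the Mvd cells of MMS 2, 3 and 4 (-1.47, -1.29 and -1.65) lie beyond the lower limit, while Fads1 reaches 0.73 in MMS 2 and 0.79 in MMS 4.

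Summed over the 18 cholesterol enzymes, the level was 2669 to 3115 CPM in controls (2934 ± 145, SD, n = 6) and 2198 to 3121 CPM in MMS (2656 ± 377, SD, n = 6). MMS 2, 3 and 4 were below every control, at 2408, 2198 and 2451 CPM, and MMS 6 was above every control. The largest parts of the difference in means were those of Hmgcs1 and Mvd. Hmgcs1 had means of 1136 CPM in controls and 996 CPM in MMS, and Mvd of 220 and 142 CPM. Of the 18 enzymes, 12 had log2 fold changes below 0 and 6 above. For the 9 fatty acid genes the sum was 1841 to 2197 CPM in controls (2041 ± 133, SD, n = 6) and 1966 to 2732 CPM in MMS (2242 ± 324, SD, n = 6). MMS 2 and MMS 4 were above every control, at 2553 and 2732 CPM. Most of this rise was that of Scd2 and Fads1. Scd2 was at 1271 and 1442 CPM in these libraries, beside a control mean of 920 CPM, and Fads1 at 334 and 346 CPM, beside 201 CPM. Elovl5 was lower in both, at 171 and 170 CPM, beside 211 CPM. The sum of the SREBP group was 274 to 301 CPM in controls, 379 and 386 CPM in MMS 2 and MMS 4, and 270 to 288 CPM in the other MMS libraries.

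Cell type markers also set MMS 2 and MMS 4 apart. The 8 neuronal markers summed to 7925 to 8927 CPM in controls and to 6231 to 8808 CPM in MMS, with MMS 2 (6231 CPM) and MMS 4 (6432 CPM) the lowest. Of the 8, 4 had log2 fold changes above 0 and 4 below. The mean of the sum fell from 8387 CPM in controls to 7580 CPM in MMS. The mean of Tubb3, a neuronal tubulin and the most abundant of them, fell by more, from 3163 to 2257 CPM. Tubb3 was lowest in MMS 2 at 1280 CPM, whereas Snap25 (464 CPM) and Stmn2 (2172 CPM) were at their highest of all 12 libraries in MMS 4. The 10 astrocyte markers summed to 1957 to 2387 CPM in controls and to 2332 to 2687 CPM in MMS, with MMS 2 (2655 CPM) and MMS 4 (2687 CPM) the highest. Of these 10, 6 had log2 fold changes above 0 and 4 below. For Aldoc all 6 MMS libraries were above every control, as for 0.13% of all genes tested. Its log2 fold change was 0.33 (adjusted p = 0.471 by edgeR), and that of Gjb6 was 0.66 (adjusted p = 0.543 by edgeR). By contrast, Gfap (42.4 CPM) and S100b (161 CPM) were at their lowest of all 12 libraries in MMS 2. These genes were named after their values were seen. The 14 ependymal markers summed to 126 to 274 CPM in controls and to 33.8 to 270 CPM in MMS, with MMS 2 (33.8 CPM) and MMS 4 (75.9 CPM) the lowest. The 13 oligodendrocyte and precursor markers summed to 971 to 1350 CPM in controls and to 1070 to 1420 CPM in MMS, so these ranges overlapped over most of their length. None of these 4 lists held a gene at 0 counts over all 12 libraries together. In single libraries the ependymal markers Hydin, Ccdc153 and Tmem212 were at 0 CPM in MMS 2, and Mog at 0 CPM in Control 6. Of the genes of these 4 lists 0 passed an FDR of 0.05 in edgeR. At an unadjusted p under 0.05, 4 were higher and 3 lower in MMS, beside 4.68% and 4.4% of all genes. The part of cell composition in the levels of the synthesis genes was not tested. In such bulk tissue fewer cells of a type and less mRNA per cell cannot be told apart.

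**Figure D4:**
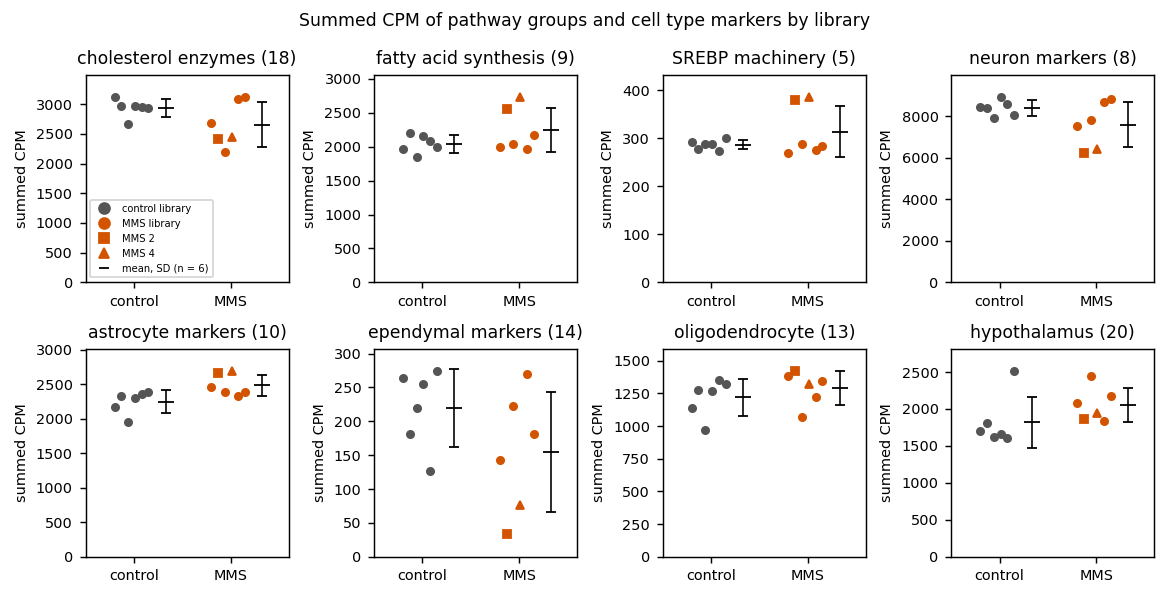
Summed CPM per library of 3 groups of pathway genes and 5 lists of cell type or tissue markers (number of genes in brackets), with control libraries in grey, MMS libraries in orange, MMS 2 as a square, MMS 4 as a triangle, and bars for the mean and SD of 6 libraries. MMS 2 and MMS 4 lie highest for fatty acid synthesis, SREBP machinery and astrocyte markers and lowest for neuronal and ependymal markers.

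Further genes of the pathway were taken from 3 lists, and 0 of 51 genes tested passed an FDR of 0.05 in edgeR. In 16 other sterol synthesis and SREBP genes, 8 log2 fold changes were above 0 and 8 below, with a median of -0.002, and 1 gene was higher at an unadjusted p under 0.05, beside 4.68% of all genes. That gene was Mbtps2, the site-2 protease that releases SREBP from the membrane. It measured 10.6, 11.1 and 17.7 CPM in controls and 15.1, 22.4 and 26.9 CPM in MMS, with 4 of 6 MMS libraries above every control. In the fit the log2 fold change was 0.69 (SE 0.20, adjusted p = 0.471 by edgeR), and 0.53 without MMS 2 and MMS 4 (edgeR adjusted p = 0.961). Exons of Mbtps2 overlap those of Yy2 on the same strand.

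Mbtps1, the site-1 protease that makes the cut before it, measured 97.2, 105 and 117 CPM in controls and 49.5, 94.2 and 111 CPM in MMS. MMS 4 (49.5 CPM) and MMS 2 (53.2 CPM) were far below the rest. Between the groups the log2 fold change was -0.35 (SE 0.17, adjusted p = 0.552 by edgeR), and -0.08 without them. Rnf139, a ubiquitin ligase of the endoplasmic reticulum, was at 0.20 (SE 0.11, adjusted p = 0.584 by edgeR).

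In 20 other fatty acid genes, 11 log2 fold changes were above 0 and 9 below, with a median of 0.04, and 4 were higher and 2 lower at an unadjusted p under 0.05, beside 4.68% and 4.4% of all genes. Acss2, which makes acetyl-CoA from acetate, measured 15.6, 18.3 and 21.9 CPM in controls and 19.0, 23.0 and 35.7 CPM in MMS, with MMS 2 and MMS 4 (35.7 and 34.9 CPM) the highest. Its log2 fold change was 0.51 (SE 0.18, adjusted p = 0.543 by edgeR), and 0.22 without them. The elongases Elovl2 and Elovl7 were at -0.34 (SE 0.14) and -0.74 (SE 0.30), both with an edgeR adjusted p of 0.543. Elovl7 rested on 396 counts in all.

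In 15 genes of the sterol-sensing LXR receptors and of sterol export and storage, 5 log2 fold changes were above 0 and 10 below, with a median of -0.02, and 3 were higher and 1 lower at an unadjusted p under 0.05, beside 4.68% and 4.4% of all genes. The smallest p-values were those of Vldlr, a lipoprotein receptor (0.34, SE 0.14), Cyp46a1, the neuronal enzyme that turns cholesterol into 24-hydroxycholesterol for export (0.30, SE 0.13), and Nr1h2, the receptor LXR-beta (-0.40, SE 0.17). Their edgeR adjusted p was 0.543 each. MMS 2 and MMS 4 were the highest libraries for Vldlr, at 52.4 and 52.3 CPM, and without them the log2 fold change was 0.19 for Vldlr, 0.23 for Cyp46a1 and -0.35 for Nr1h2. For Cyp46a1, 5 of 6 MMS libraries were above every control, and for Nr1h2 5 of 6 were below every control.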

How the data were processed

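The authors made 3' mRNA libraries with the QuantSeq kit, sequenced them on an Ion Proton and aligned reads to mm10 in Torrent Suite. They deposited raw counts per gene symbol, without normalization or pooling. Counting tool, strand setting and annotation: not given in the sources used here. In 3' libraries reads per molecule do not grow with transcript length, so CPM was not divided by length. Symbols had become dates in 27 rows (0.175% of counts), which were kept unnamed.

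Libraries were assigned to groups by title. The 30 within-group pairs differed by a chi-square per degree of freedom of 4.04 to 31.5, so no library was a copy of another. Each counted as a sample, although this check cannot show that pups were independent. Genes were tested in edgeR 4.0.16 (R 4.3.3) by its quasi-likelihood F-test after TMM scaling and its standard filter (minimum count 10, minimum total 15), two-sided, with Benjamini-Hochberg adjustment over 13104 genes and a threshold of 0.05. CPM used the same scaling. Log2 values per library had a prior count of 2. Intervals are 95%, from the SE and the total degrees of freedom of the fit (residual plus prior). The script was tested on simulated data. DESeq2 1.42.0, limma 3.58.1 and the other settings tried are described in the closing section. No molecular identifiers are named in the sources used, so reads may not be independent molecules.

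Positions and exon overlaps come from GENCODE M21 (GRCm38, the same build as mm10), and near copies of transcript ends from BLAST 2.17.0. Of the 34 genes, 4 share exons with another gene on the same strand and 8 on the opposite strand. The members and lists were chosen with earlier results of these data known. Genes described in full were the 5 with the smallest p in each direction and 6 regulators, and the 3 with the smallest p were named from each list of other pathway genes. Listed symbols absent from the table were matched through RefSeq synonyms, which found 3 and left 1 unmatched. Of the genes refitted under other settings, 1 is not reported here.

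Other marker lists were neurons, astrocytes, oligodendrocytes, ependyma, tanycytes, microglia, vessels, meninges, red blood cells, choroid plexus, pituitary, telencephalon and thalamus. Of their genes 0 passed the threshold in edgeR. The median log2 fold changes of those not described in the report were -0.29 for tanycytes, 0.05 for microglia, -0.11 for vessels, -0.29 for meninges, -0.36 for red blood cells, -0.16 for choroid plexus, 0.39 for telencephalon and 0.04 for thalamus, and 0 of 7 pituitary markers passed the filter.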

Additional observations from a re-analysis of the deposited data

Results flagged for a closer look

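A library far from the other 5 of its group was looked for by Dixon's criterion in 110 sets of 6 values (34 genes and 21 sums in each group), and 9 were found where chance gives about 5.5. Among single genes 4 of 68 sets held such a library, where chance gives about 3.4. Control 3 was low for Hmgcs1 (1028 CPM, next 1134 CPM) and Msmo1 (211 CPM, next 258 CPM). It was also low for the sum of the enzymes from squalene to cholesterol (935 CPM, next 1076 CPM) and for the sum of all 34 genes (4842 CPM, next 5269 CPM). The same library was high for choroid plexus markers, at 1779 CPM where the next control held 45.2 CPM. Dhcr7 was low in Control 2 (45.9 CPM, next 52.9 CPM), and Sc5d was high in MMS 6 (51.9 CPM, next 37.5 CPM). Hypothalamic markers were high in Control 6 (2513 CPM, next 1813 CPM) and microglial markers in Control 4 (226 CPM, next 192 CPM).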

How the results depend on the processing

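Across 7 other settings and 12 fits that left out 1 library, 0 of the 34 genes passed an FDR of 0.05. Of the 24 genes refitted by name (14 of the 34 and 10 others) 0 passed it in any setting. Over all genes the count past the threshold was 0 in the edgeR fit with every library, 7 with DESeq2, 1 without a count filter, 1 with the replicate number as a block, 5 without MMS 2 and MMS 4, and 0 to 1 on leaving out 1 library (1 without MMS 2 and without MMS 4). At an unadjusted p under 0.05 the genes of the group that were higher numbered 1, and 2 with DESeq2. Those that were lower numbered 1, and 2 with DESeq2, with limma-voom, with a mean of at least 50 counts and with the replicate block. On leaving out 1 library the higher ones numbered 1 to 2 (2 without MMS 1, 2, 4 or 5) and the lower ones 0 to 3 (3 without MMS 5, and 0 without Control 1, 2, 4 or 6, MMS 1 or MMS 3). Over all genes these fits had 2.65% to 7.40% higher and 2.61% to 6.24% lower, with the highest of both without MMS 5. The median over the 34 genes was then -0.006 to 0.06, that of the cholesterol enzymes -0.14 to -0.04 and that of the fatty acid genes 0.03 to 0.14. Without MMS 2 and MMS 4 together the median of the cholesterol enzymes was -0.05, where the main fit gave -0.09. For the fatty acid genes it was then -0.0006, and the sign turned for Scd2 (-0.021), Srebf2 (-0.069) and Abca1 (-0.081). That of Srebf1 ran from -0.12 (without MMS 2) to 0.037 (without MMS 3) on leaving out 1 library, and the other 20 refitted genes kept theirs throughout.

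No clear pairing by replicate number was seen, although this check cannot exclude shared litters, since the labels do not give the litter. Correlations between the deviations of same-numbered libraries ran from -0.048 to 0.116, and 2 of 6 controls correlated best with their own number. Of all genes tested, 4.40% were lower and 4.68% higher at an unadjusted p under 0.05 in the edgeR fit. The shares were 5.56% and 3.78% with the replicate block and 6.32% and 4.01% with limma-voom. The cause of these shifts was not tested. The widest interval of the 34 was that of Mvd, with a half-width of 0.64 on the log2 scale at 10116 counts in all, beside a median half-width of 0.27.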
